A study of Mus musculus with 12 samples.

Results

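The 8 genes described here are regulators of CD4+ T helper lineages and the cytokine gene of the Th1 lineage: Tbx21, Gata3, Rora, Bcl6, Maf, Prdm1, Irf4 and Ifng. They were chosen by name, and all 8 were listed in both deposited tables, among 10405 genes in regulatory T cells (Treg), 9886 in conventional T cells (Tcon) and 10507 in either table. RNA was sequenced in 12 libraries, 6 from cells labelled naive CD4+ Tcon and 6 from CD4+CD25+FOXP3+ Treg, all from mice of the GFP reporter strain B6.Cg-Foxp3tm2Tch/J (FOXP3-IRES-GFP), in which cells that transcribe Foxp3 carry GFP. The treatment, shortened to SAH below, was a peptide named after FOXP3 with a stapled alpha helix, SAH-FOXP3(229-259)C, given at 25 mg/kg by intraperitoneal injection on each of 2 days, and the controls received the vehicle, which the titles give as DMSO. In each cell type, either organ, lymph node or spleen, was represented by 1 vehicle library and 2 SAH libraries. No age is used here, and no label ties libraries to separate mice, so every p-value refers to the spread among these libraries, which may be technical. Values are the authors' normalised reads of a gene scaled to the size of its library (CPM). Read numbers given here were rebuilt from the steps between CPM values and could not be checked. They gave a depth of 36442420 to 48888678 reads in the listed genes of each library, where 1 read was worth at most 0.0267 CPM.

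Helper T cells take on specialised programmes, each driven by a lineage-defining transcription factor. Tbx21 encodes T-bet, the Th1 regulator that drives Ifng, the gene for interferon-gamma. Gata3 is the Th2 regulator, Rora encodes a nuclear receptor that acts in Th17 cells, Bcl6 is the follicular helper (Tfh) regulator, Maf serves Tfh and Th17 cells and Il10 transcription, Prdm1 encodes Blimp-1, which opposes Bcl6, and Irf4 acts downstream of the antigen receptor. Treg use several of these factors as well: T-bet marks Treg that control Th1 responses, and Irf4, Prdm1, Maf and Gata3 take part in the effector Treg programme. Naive T cells keep Tbx21, Ifng and Prdm1 low.

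The labels were checked against marker genes. Foxp3 read 655 to 726 CPM in the 6 Treg libraries and 19.6 to 24.9 CPM in the 6 Tcon libraries. Cd4 read 696 CPM or more in all 12 libraries, Cd8a was not listed in either table, and 0 of the 5 gamma-delta T cell markers were listed. Whether an unlisted gene was low or missing from the annotation cannot be told, so its absence is no check of the labels. Cd8b1 was listed in both tables. The Tcon libraries were rich in Ccr7 (587 to 861 CPM), which marks naive and recirculating T cells, and they also held the memory marker Cd44 at 60.7 to 103 CPM.

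The 8 genes lie on 7 chromosomes in mm10 (GENCODE M21), with Ifng at chr10:118441046-118445892 on the plus strand, Tbx21 at chr11:97098071-97115331 on the minus strand and Irf4 at chr13:30749226-30766976 on the plus strand. Tbx21 and Ifng are the genes that differed most between organs, and Irf4 is the 1 that ran the other way, so their promoters are shown, as 300 bases from 250 before to 50 after the RefSeq start (GRCm38.p6), 5′ to 3′ on the strand of the gene. Capitals mark matches, on either strand, to the TATA box letters TATAAA or the ROR core letters AGGTCA, printed as TGACCT where the match is on the other strand. The windows are chr11:97115282-97115581 for Tbx21, chr10:118440796-118441095 for Ifng and chr13:30748983-30749282 for Irf4.
Tbx21: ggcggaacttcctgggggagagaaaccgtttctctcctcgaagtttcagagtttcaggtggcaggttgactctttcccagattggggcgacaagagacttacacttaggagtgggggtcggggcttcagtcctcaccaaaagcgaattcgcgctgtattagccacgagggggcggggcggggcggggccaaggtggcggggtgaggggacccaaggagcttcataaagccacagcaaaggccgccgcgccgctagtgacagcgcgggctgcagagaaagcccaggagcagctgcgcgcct
Ifng: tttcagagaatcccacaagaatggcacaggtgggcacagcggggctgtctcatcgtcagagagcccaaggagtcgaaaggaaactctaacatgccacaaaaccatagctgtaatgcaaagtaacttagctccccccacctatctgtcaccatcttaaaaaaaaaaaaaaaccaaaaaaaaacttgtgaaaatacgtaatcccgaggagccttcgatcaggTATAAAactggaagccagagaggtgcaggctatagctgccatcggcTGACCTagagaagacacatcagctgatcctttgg
Irf4: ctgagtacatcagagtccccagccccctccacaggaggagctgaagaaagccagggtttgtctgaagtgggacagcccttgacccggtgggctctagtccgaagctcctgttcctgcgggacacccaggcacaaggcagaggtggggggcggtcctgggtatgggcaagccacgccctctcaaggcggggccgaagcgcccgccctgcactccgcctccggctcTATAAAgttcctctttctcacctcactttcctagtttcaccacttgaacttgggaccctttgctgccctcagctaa
The Ifng window held TATAAA at position -30 and the ROR core at position 16, counted from the RefSeq start as 1, and the Irf4 window held TATAAA at position -26. In the Tbx21 window none of the letters searched was found. Of all 32851 promoter windows, 13.6% held TATAAA and 16.3% held AGGTCA. The T-box core letters TCACAC (14.5% of windows) were in none of the 8 windows that RefSeq gave for 7 of the genes, and the NFAT core letters GGAAAA (23.4% of windows) were found in the Rora window and in 1 of the Bcl6 windows. No match overlapped another. Ifng was also the poorest of these windows in CpG, with 7 CpG and 46.0% GC, against 11 to 31 CpG and 51.7% to 67.3% GC in the others and a median of 7 CpG and 52.7% GC over all windows.

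Per kilobase of exon, the 8 genes spanned a wide range of levels within each cell type. In Treg, Gata3 (37.6 ± 3.43 CPM per kilobase, SD, n = 6) and Irf4 (31.9 ± 3.59) stood highest with overlapping ranges, followed by Maf (16.0 ± 3.27), and Tbx21 (1.93 ± 0.757) and Rora (1.42 ± 0.185) were lowest, also overlapping. Ifng, Prdm1 and Bcl6 lay between, at 8.65, 5.62 and 4.84 CPM per kilobase, each overlapping its neighbour. In Tcon, Irf4 led at 36.7 ± 7.35 CPM per kilobase (SD, n = 6), above every library's Gata3 value (19.2 ± 1.74), and Rora was lowest at 0.335 ± 0.138, below every Prdm1 value (1.84 ± 0.331). The ranges of Gata3, Ifng, Maf, Bcl6, Tbx21 and Prdm1 overlapped from each to the next in Tcon, where Ifng (2.37 to 23.4 CPM per kilobase) and Tbx21 (0.441 to 6.00) had the largest ratios of highest to lowest library with both organs pooled.

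**Figure D1:**
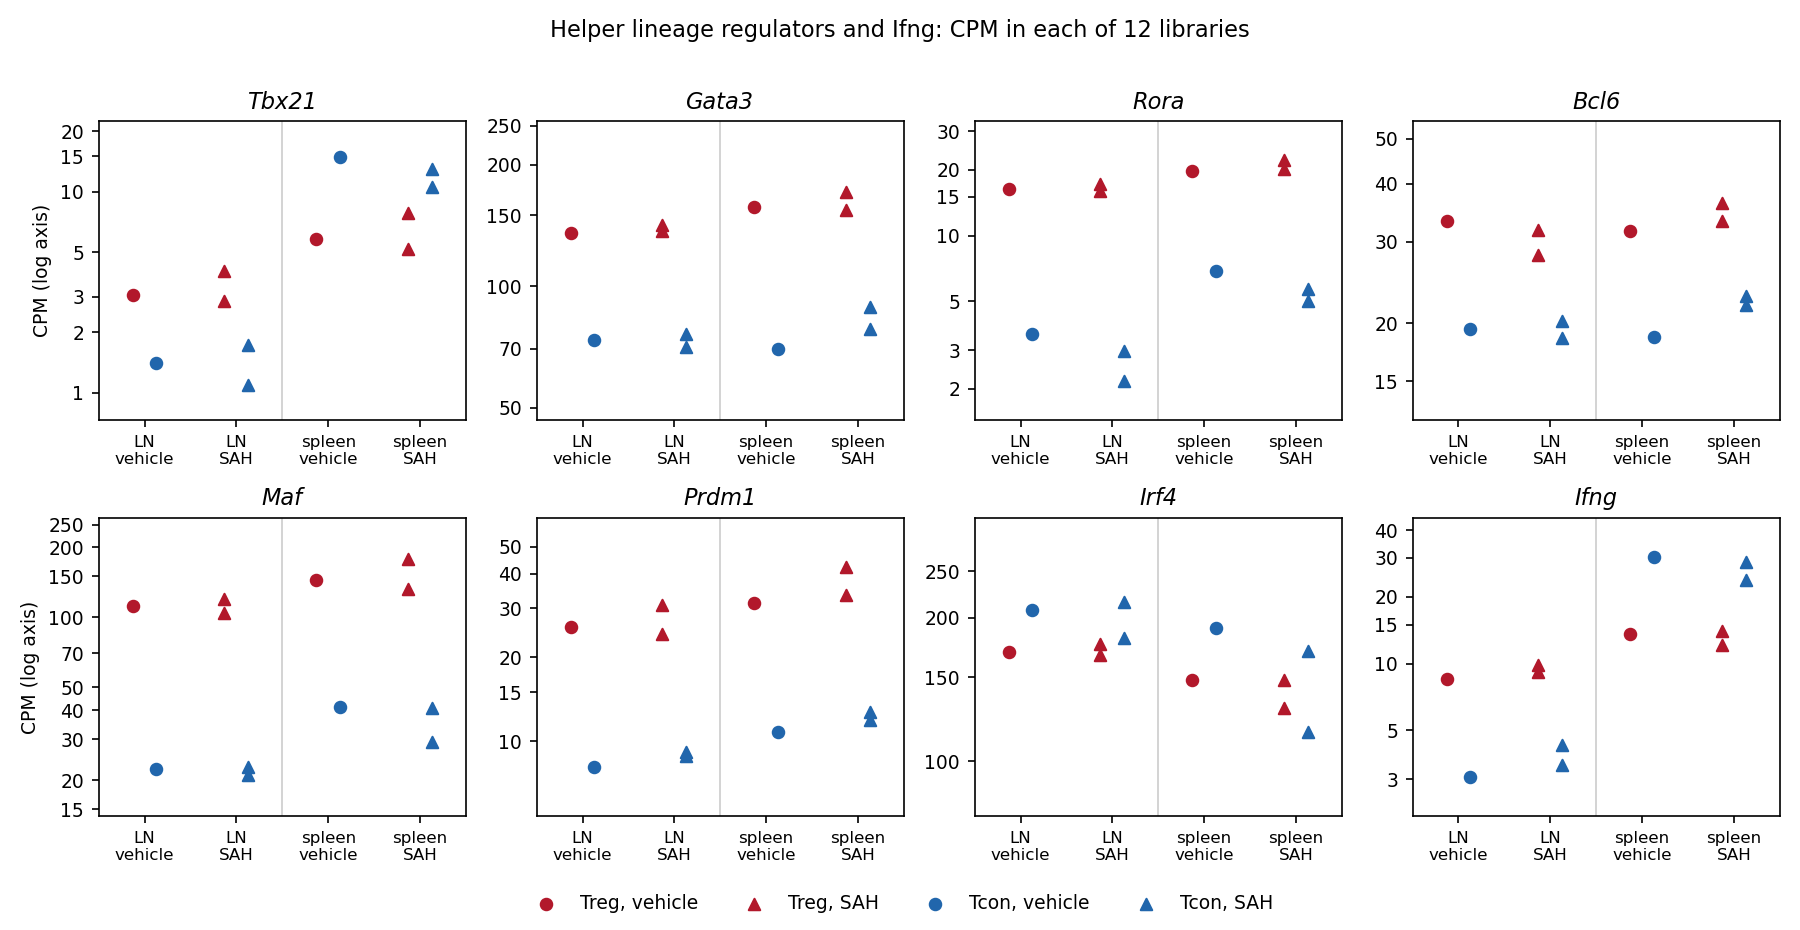
CPM of each gene (log axis) in the 12 libraries, by cell type and organ, with 1 point per library and symbols for vehicle and SAH. Tbx21 and Ifng in Tcon show the widest gap between the organs, from at most 1.73 and 4.29 CPM in lymph node to at least 10.6 and 23.9 CPM in spleen. For these genes in Tcon, vehicle and SAH points of an organ lie nearer to each other than to the other organ. Other genes can differ more within an organ, such as Irf4 in spleen Tcon, at 191 CPM with vehicle and 115 CPM in SAH library 6.

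The Th1 genes Tbx21 and Ifng separated the organs most, above all in Tcon. In Tcon, Tbx21 read 1.41 CPM in the lymph node vehicle library and 1.73 and 1.10 CPM in the lymph node SAH libraries, against 14.9 CPM in the spleen vehicle library and 12.9 and 10.6 CPM in the spleen SAH libraries. Every spleen library stood above every lymph node library, and the fitted spleen level was 5.71-fold higher (log2 change 2.51, SE 0.13, 95% interval 2.22 to 2.81, adjusted p = 3.43e-06). Fitted folds are those of CPM + 1, which understates the change of low genes, and the 3 lymph node libraries rest on 43 to 73 Tbx21 reads each. Ifng in Tcon read 3.07 CPM in the lymph node vehicle library and 4.29 and 3.47 CPM with SAH, against 30.4 CPM in the spleen vehicle library and 28.7 and 23.9 CPM with SAH. The organs did not overlap here either, at a 6.22-fold higher spleen level (log2 change 2.64, SE 0.12, 95% interval 2.37 to 2.90, adjusted p = 1.64e-06). By p-value Ifng ranked 3 and Tbx21 ranked 8 among the 9886 genes of this comparison. In bulk RNA, a larger share of cells with the transcript and more transcript per cell cannot be told apart.

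In Treg the same genes differed between organs by less. Tbx21 read 3.08 CPM in the lymph node vehicle library and 4.03 and 2.85 CPM with SAH, and in spleen 5.81 CPM with vehicle and 7.84 and 5.19 CPM with SAH. The organs did not overlap, and spleen was 1.68-fold higher (log2 change 0.75, SE 0.14, 95% interval 0.43 to 1.06, adjusted p = 0.00298). Ifng read 8.53, 9.14 and 9.86 CPM in the lymph node libraries, vehicle first, and 13.5, 12.2 and 14.0 CPM in the spleen libraries in the same order. Again no spleen value fell within the lymph node range, and the difference was 1.40-fold (log2 change 0.48, SE 0.090, 95% interval 0.29 to 0.68, adjusted p = 0.00223). Both genes were called in both cell types under each of the 12 alternative settings, which include leaving out each library in turn. The size moved with the value added before the logarithm: with 5 in place of 1, the Tbx21 difference was 1.47 in Tcon and 0.43 in Treg. For every gene, leaving out library 1 or library 4 gives the same organ difference, so these are not separate checks here or below.

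In all, 5 of the 8 genes were called in the organ comparison of Tcon, all higher in spleen, where 4.73% of the 9886 genes tested were called and 3.28% were called higher. In Treg 7 of the 8 were called, 6 higher and Irf4 lower in spleen, where 14.7% of 10405 genes were called, 8.71% higher and 6.01% lower. The median log2 change of the 8 genes was 0.56 in Tcon and 0.35 in Treg, beside a median over all genes of -0.0019 in Tcon and -0.0028 in Treg. The spleen and lymph node libraries did not overlap for the same 5 genes in Tcon (19.3% of all genes) and for all but Bcl6 in Treg (32% of all genes).

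**Figure D2:**
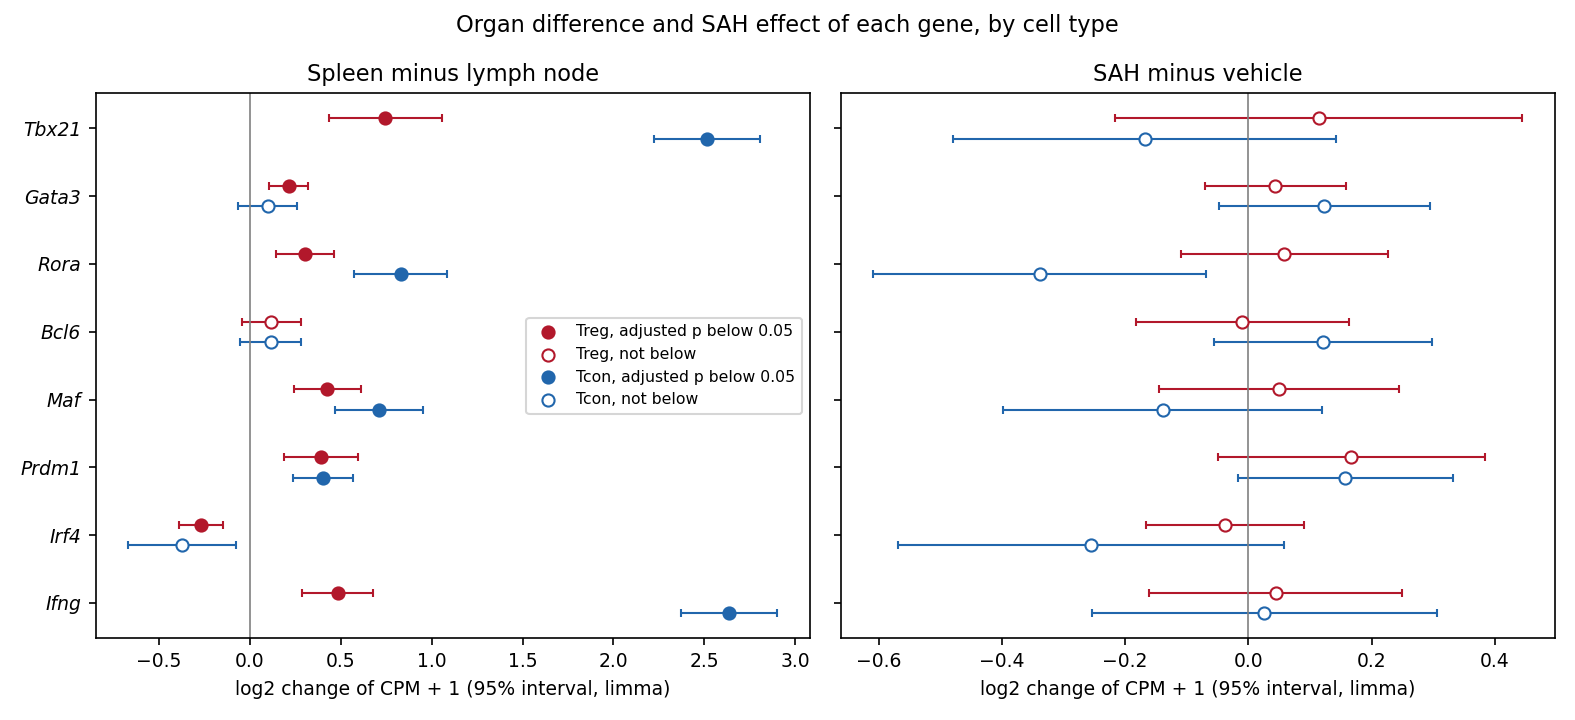
Fitted log2 change of CPM + 1 for each gene with its 95% interval, spleen minus lymph node on the left and SAH minus vehicle on the right, for Treg and Tcon; filled points have an adjusted p under the threshold of 0.05. On the left Tbx21 and Ifng of Tcon lie apart at 2.51 and 2.64, and on the right no point is filled and the values run from -0.34 to 0.17.

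The Th17-associated gene Rora was higher in spleen in both cell types. In Tcon it read 3.55 CPM in the lymph node vehicle library and 2.16 and 2.96 CPM with SAH, against 6.90 CPM in the spleen vehicle library and 5.02 and 5.70 CPM with SAH. The organs did not overlap, and the difference was 1.78-fold (log2 change 0.83, SE 0.11, adjusted p = 0.00197, and 0.46 with a pseudocount of 5). In Treg, Rora read 16.3, 16.0 and 17.2 CPM in lymph node, vehicle first, and 19.7, 22.1 and 20.1 CPM in spleen. That smaller difference, 1.23-fold (log2 change 0.30, SE 0.074, adjusted p = 0.0132), lost its call without library 1 (adjusted p = 0.0544), library 2 (0.0934) or library 4 (0.0547).

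Of the Tfh genes, Maf was higher in spleen in both cell types and Bcl6 passed the test in neither. Maf read 22.3 CPM (vehicle) and 22.8 and 21.0 CPM (SAH) in Tcon of lymph node, against 41.3 CPM (vehicle) and 40.8 and 29.2 CPM (SAH) in Tcon of spleen. The spleen was 1.64-fold higher (log2 change 0.71, SE 0.11, adjusted p = 0.00408), and the call was lost without library 3 (adjusted p = 0.055). In Treg, Maf read 112, 120 and 105 CPM in lymph node, vehicle first, and 144, 179 and 133 CPM in spleen, a difference of 1.34-fold (log2 change 0.43, SE 0.086, adjusted p = 0.00376). In Treg, Bcl6 lay at 28.0 to 33.3 CPM in lymph node and at 31.6 to 36.3 CPM in spleen, and in Tcon at 18.6 to 20.2 CPM and 18.7 to 22.9 CPM. These ranges overlapped, with log2 changes of 0.12 (95% interval -0.045 to 0.28, adjusted p = 0.338) in Treg and 0.11 (-0.052 to 0.28, adjusted p = 0.497) in Tcon.

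Prdm1, the gene of Blimp-1, was higher in spleen by a similar amount in Treg and Tcon. In Tcon it read 8.05 CPM with vehicle and 8.87 and 9.14 CPM with SAH in lymph node, and 10.8, 12.7 and 12.0 CPM in spleen in that order. The 1.32-fold difference (log2 change 0.40, SE 0.074, adjusted p = 0.0126) was no longer called without library 1 (adjusted p = 0.0591), 3 (0.0589), 4 (0.0615) or 5 (0.0656). In Treg it read 25.8, 30.7 and 24.3 CPM in lymph node and 31.4, 42.3 and 33.5 CPM in spleen, vehicle first. Here the difference was 1.31-fold (log2 change 0.39, SE 0.095, adjusted p = 0.0129), and without library 3 the adjusted p was 0.0728. The lowest spleen value of Treg, 31.4 CPM, lay just above the highest lymph node value, 30.7 CPM.

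Gata3, the Th2 regulator, was called in Treg and not in Tcon. In Treg it read 136 CPM with vehicle and 142 and 137 CPM with SAH in lymph node, and 157, 154 and 171 CPM in spleen. The difference was small, 1.16-fold (log2 change 0.21, SE 0.050, adjusted p = 0.0101), and its call was lost without library 1 (adjusted p = 0.0685), 2 (0.0533), 3 (0.0546) or 4 (0.0679). In Tcon the organs overlapped at 70.6 to 76.2 CPM and 69.9 to 88.8 CPM (log2 change 0.098, adjusted p = 0.556). Whether the organ difference of Gata3 itself differed between the cell types was tested, and it was not called (0.12, 95% interval -0.082 to 0.31, adjusted p = 0.685).

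Irf4 was the 1 gene of the 8 that was lower in spleen. In Treg it read 169 CPM with vehicle and 176 and 167 CPM with SAH in lymph node, against 148, 148 and 129 CPM in spleen. The organs did not overlap, and Irf4 fell by 0.27 on the log2 scale (1.21-fold lower, SE 0.056, adjusted p = 0.00475), with an adjusted p of 0.0639 without library 2. In Tcon it read 208, 216 and 182 CPM in lymph node and 191, 170 and 115 CPM in spleen, vehicle first. The spleen vehicle value lay within the lymph node range, and the change of -0.37 (95% interval -0.67 to -0.078) did not pass the test (adjusted p = 0.171). Library 6, from spleen with SAH, had the lowest Irf4 value of the 6 in both cell types.

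**Figure D3:**
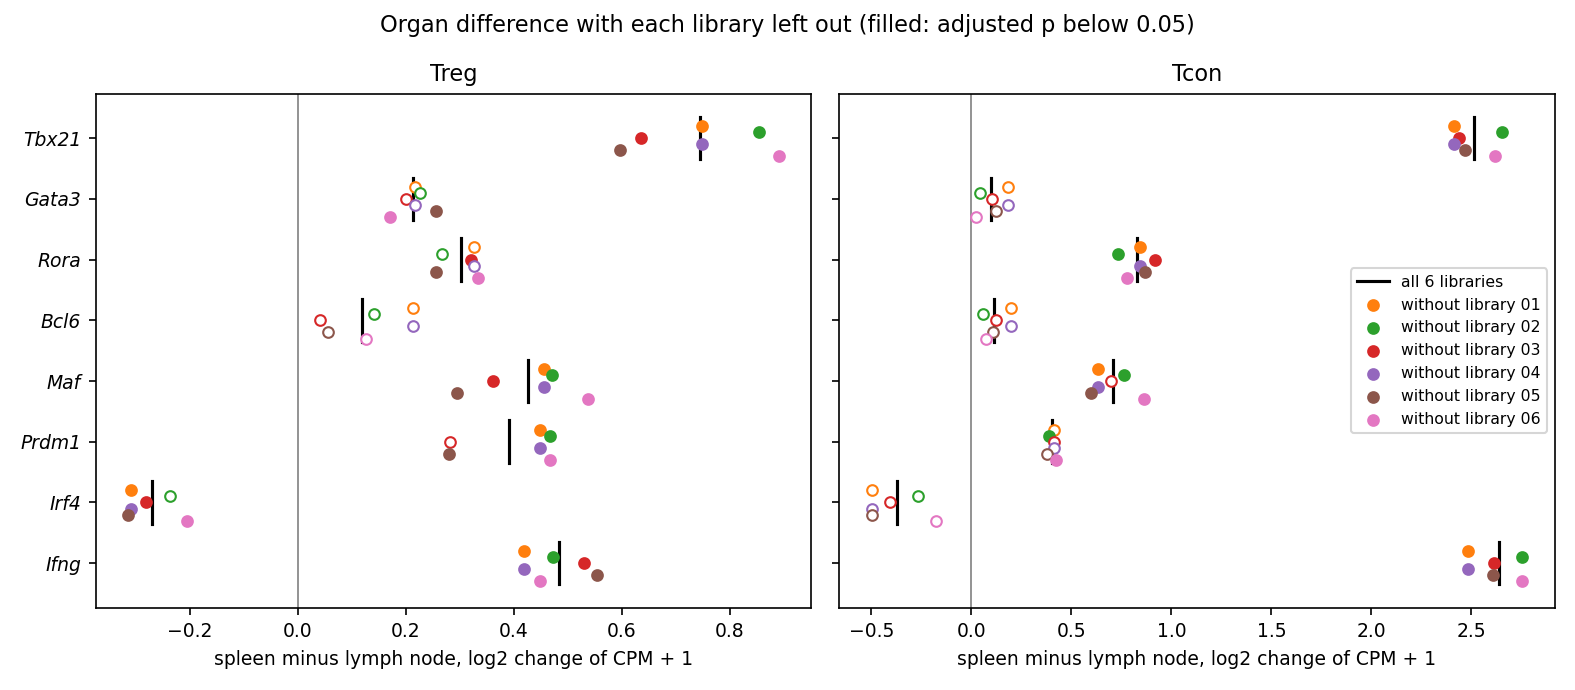
Spleen minus lymph node difference of each gene, as log2 change of CPM + 1, with all 6 libraries (black bar) and with each library left out (coloured points, filled where the adjusted p stayed under 0.05), for Treg on the left and Tcon on the right. Tbx21 and Ifng keep filled points throughout, whereas Gata3 and Rora in Treg and Prdm1 in Tcon have open points for 3 or 4 of the 6 libraries. The points without library 1 and without library 4 are the same difference and count as 1 check.

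Within 1 model of all 12 libraries, the organ difference was larger in Tcon than in Treg for 2 of the 8 genes, Tbx21 and Ifng, where 1.46% of 9784 genes were called, 1.09% with the smaller value in Treg and 0.368% with the larger. For Tbx21 the Treg difference was smaller by 3.41-fold (log2 change -1.77, SE 0.22, 95% interval -2.23 to -1.30, adjusted p = 0.000354). For Ifng it was smaller by 4.45-fold (-2.15, SE 0.16, 95% interval -2.49 to -1.82, adjusted p = 3.17e-06). Both were called under all 13 alternatives, with a Tbx21 value of -1.03 at a pseudocount of 5. Rora pointed the same way (-0.53, 95% interval -0.81 to -0.24, adjusted p = 0.0712) and was called with a smaller pseudocount of 0.25 (adjusted p = 0.0459). With the library number as a block, which pairs each Treg library with the Tcon library of the same number, Rora (adjusted p = 0.0107) and Maf (-0.28, adjusted p = 0.0164, against 0.533 without the block) were called as well, and 703 genes were called in all, against 143 without it. For Prdm1 (-0.013, 95% interval -0.30 to 0.28) and Bcl6 (0.0038, -0.24 to 0.25) the 2 cell types were within their error of each other.

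Set side by side, without a test because the 2 tables were normalised separately, the order of the cell types changed with the organ for these same 2 genes. In lymph node the mean of the 3 Treg libraries was above that of Tcon by 2.35 times for Tbx21 (3.32 against 1.41 CPM) and 2.54 times for Ifng (9.18 against 3.61 CPM). In spleen the Tcon mean was the higher, by 2.04 times for Tbx21 (12.8 against 6.28 CPM) and 2.09 times for Ifng (27.6 against 13.2 CPM), and in neither organ did the ranges overlap. The other regulators kept 1 order in both organs. Treg levels were above Tcon levels by 5.72 times in lymph node and 3.51 times in spleen for Rora, 5.09 and 4.09 times for Maf, 3.10 and 3.02 times for Prdm1, 1.88 and 2.03 times for Gata3, and 1.60 and 1.60 times for Bcl6. Irf4 alone had a lower Treg mean in both organs (0.847 and 0.894 of the Tcon mean), with overlapping ranges in spleen. Ranges that do not overlap were common between the cell types, at 71.5% of all genes in lymph node and 68.6% in spleen.

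Markers of other cells moved with the Tcon organ difference, and their part in it was not tested. The 7 memory T cell markers summed to 225 to 254 CPM in lymph node Tcon and 397 to 524 CPM in spleen Tcon, and 6 of the 7 were called higher in spleen. Among all Tcon genes, 3.28% were called higher in spleen. Of the 11 markers of CD8 T, NK and NKT cells 7 were listed, with a sum of 40.8 to 46.4 CPM in lymph node and 84.8 to 111 CPM in spleen, and 5 were called higher. Among them, Zbtb16, the regulator of NKT cells, lay at 0.179 to 0.332 CPM in lymph node and at 5.82 to 8.98 CPM in spleen, and Klrb1c, which encodes NK1.1, at 0.332 to 0.664 CPM and 10.9 to 23.6 CPM. The defining markers Cd8a and Ncr1 were not listed, and Cd8b1 stood at 13.8 to 14.4 CPM in lymph node and 13.5 to 14.3 CPM in spleen. The 6 naive markers summed to 4981 to 5086 CPM in lymph node and 5271 to 5384 CPM in spleen, with 0 called. The plasma cell gene Jchain (0.281 to 0.373 against 36.7 to 102 CPM) and the myeloid gene Lyz2 (0.0800 to 0.664 against 18.1 to 22.7 CPM) were higher in spleen too. The other tested markers of these cells were not called in Tcon. Their log2 changes were -0.0029 for the plasma cell marker Xbp1, and 0.15, 0.18 and 0.31 for the myeloid markers Cst3, Itgam and Cd68. Of 6 B cell markers only Cd79a was listed in Tcon, and it was not called (log2 change 0.43, adjusted p = 0.0672). The spleen vehicle library of Tcon held the highest Tbx21, Ifng, Maf, Rora and Irf4 values of its 3. It held the lowest Prdm1 (10.8 CPM), Gata3 (69.9 CPM) and Bcl6 (18.7 CPM) values. The memory (524 CPM) and CD8, NK and NKT (111 CPM) sums were also highest in this library. Without it the organ differences were 2.41 for Tbx21 and 2.48 for Ifng on the log2 scale. In Treg the 7 memory markers summed to 1527 to 1723 CPM in lymph node and 1575 to 1729 CPM in spleen. Of these 7, 3 were called higher in spleen (S100a4, Cxcr3 and Ccl5) and 1 lower (Cd44). Of the 11 CD8, NK and NKT markers 5 were listed in Treg, and their sum was 33.5 to 34.8 CPM in spleen and 40.6 to 41.1 CPM in lymph node. Of these, Klrb1c (2.02-fold) and Eomes (1.57-fold) were called higher in spleen and Nkg7, a gene of cytotoxic granules, lower (1.75-fold). In Treg too, Jchain (0.147 to 0.849 against 72.1 to 120 CPM) and Lyz2 (0.901 to 1.33 against 21.6 to 52.2 CPM) stood higher in spleen. Of the 3 plasma cell markers tested in Treg, Jchain was called higher and Derl3 lower, and all 5 myeloid markers tested were called higher. The 2 B cell markers tested in Treg summed to 9.95 to 11.3 CPM in lymph node and 11.5 to 16.0 CPM in spleen. Of these, Cd79a was called higher and Cd79b was not called. Among all Treg genes, 8.71% were called higher in spleen and 6.01% lower.

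The study's own question was what the peptide does to Treg and Tcon, and for these 8 genes no SAH effect passed the test in either cell type. The share of all genes called was 0.202% of 10405 in Treg and 1.04% of 9886 in Tcon (0.88% higher and 0.162% lower). At an unadjusted p below 0.05 limma had 733 Treg and 1391 Tcon genes, and of the 8 genes only Rora in Tcon was among them. The median change of the 8 was 0.047 in Treg and -0.057 in Tcon, beside 0.0035 and -0.0028 over all genes. In the authors' deposited table none of the 8 was marked as up or down, and the lowest false discovery rate there was 0.197, for Rora in Tcon.

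The SAH effects follow by lineage, as log2 changes of CPM + 1. Tbx21 changed by 0.11 in Treg (95% interval -0.22 to 0.44, adjusted p = 0.961) and by -0.17 in Tcon (-0.48 to 0.14, adjusted p = 0.664), and Ifng by 0.045 in Treg (-0.16 to 0.25, adjusted p = 0.978) and 0.026 in Tcon (-0.25 to 0.31, adjusted p = 0.957). Gata3, with the narrowest Treg interval of the 8, had 0.044 (-0.070 to 0.16, adjusted p = 0.956) in Treg and 0.12 (-0.047 to 0.29, adjusted p = 0.539) in Tcon. Changes of Bcl6 were -0.0097 (-0.18 to 0.16, adjusted p = 0.996) in Treg and 0.12 (-0.056 to 0.30, adjusted p = 0.565) in Tcon, and those of Maf 0.050 (-0.15 to 0.24, adjusted p = 0.973) and -0.14 (-0.40 to 0.12, adjusted p = 0.666). Irf4 differed by -0.038 in Treg (-0.17 to 0.091, adjusted p = 0.970) and by -0.26 in Tcon (-0.57 to 0.058, adjusted p = 0.467). As folds of CPM + 1, the Treg intervals of all 8 genes reached no further than 0.861 to 1.36, both from Tbx21.

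Rora in Tcon had the largest SAH value of the 8. All 4 SAH libraries read below the vehicle library of their organ, 2.16 and 2.96 against 3.55 CPM in lymph node and 5.02 and 5.70 against 6.90 CPM in spleen. The change of -0.34 (95% interval -0.61 to -0.068, a ratio of 0.791) did not pass after adjustment over all genes (adjusted p = 0.243, and 0.173 to 0.595 over the alternatives). All 4 SAH libraries lay below their vehicle library for 16.7% of Tcon genes. Prdm1 in Tcon was the other gene with 4 of 4 libraries on 1 side, above vehicle (0.16, 95% interval -0.017 to 0.33, adjusted p = 0.409), as 16.6% of Tcon genes were. In Treg Prdm1 changed by 0.17 (-0.050 to 0.38, adjusted p = 0.848) and Rora by 0.058 (-0.11 to 0.23, adjusted p = 0.961), with 3 of 4 SAH libraries above vehicle for each. With 1 vehicle library per organ, each of these values rests on 2 vehicle libraries.

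The SAH effect was not called different between spleen and lymph node, or between Treg and Tcon, for any of the 8 genes. Between organs, 0.00961% of Treg genes (1 of 10405) and 0% of Tcon genes were called by limma, with 251 and 504 at an unadjusted p below 0.05, and the interaction had 2 residual degrees of freedom. The largest organ interaction of the 8 was that of Ifng in Tcon, -0.47 (95% interval -0.94 to 0.013, adjusted p = 0.913): SAH libraries were above vehicle in lymph node (4.29 and 3.47 against 3.07 CPM) and below it in spleen (28.7 and 23.9 against 30.4 CPM). Between cell types 0% of 9784 genes were called by limma, 453 had an unadjusted p below 0.05, and 76 were called with the library block. Rora had the largest difference of the 8 (0.40, 95% interval 0.095 to 0.70, adjusted p = 0.918, and 0.221 with the block), followed by Tbx21 (0.28, 95% interval -0.21 to 0.78).

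Genes of the Th1 axis also separated the organs. In Tcon, where 3.28% of all genes were called higher in spleen and 1.46% lower, the median log2 change of this list was 0.68. Of its 14 tested genes, 9 were higher in spleen and 0 lower. They were the chemokine Ccl5 (11.4-fold higher, adjusted p = 1.09e-05), the chemokine receptors Cxcr6 (6.77-fold, adjusted p = 1.64e-06) and Cxcr3 (4.50-fold, adjusted p = 6.24e-06), the cytokine receptor genes Il18rap (4.56-fold), Il12rb2 (3.08-fold), Il12rb1 (2.00-fold) and Ifngr1 (1.29-fold, adjusted p = 0.0483), and the transcription factors Eomes (1.83-fold) and Stat4 (1.40-fold). Cxcr6 read 2.63 to 3.49 CPM in lymph node and 19.1 to 38.4 CPM in spleen, and Ccl5 read 0.400 to 2.18 CPM and 20.1 to 23.7 CPM. The call of Ifngr1 was lost in 8 of its 12 alternatives, among them leaving out library 1 or 4 (log2 change 0.21 and adjusted p = 0.211 for each). With a pseudocount of 5 the log2 changes were smaller by over 1.5 times for Ccl5 (2.13, against 3.51), Cxcr3 (1.39, against 2.17), Il18rap (1.12, against 2.19), Il12rb2 (0.75, against 1.62) and Il12rb1 (0.62, against 1.00), all still called. Eomes is also in the CD8, NK and NKT list, and Cxcr3 and Ccl5 are in the memory list.

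In Treg, 6 of 14 Th1 axis genes were higher in spleen, Ccl5 (2.49-fold), Cxcr3 (1.89-fold), Il18rap (1.63-fold), Ifngr1 (1.61-fold), Eomes (1.57-fold) and Stat4 (1.37-fold), and 2 were lower, among them Havcr2, the TIM-3 gene (1.85-fold lower). The median of the list was 0.15, and among all Treg genes 8.71% were called higher and 6.01% lower. A pseudocount of 5 gave 0.77 for Ccl5, 0.46 for Il18rap, 0.35 for Eomes and -0.47 for Havcr2, against 1.31, 0.71, 0.65 and -0.89 with 1. The organ difference was larger in Tcon than in Treg for 4 of the 13 tested in both, Cxcr6 (-2.82, adjusted p = 2.46e-06), Ccl5 (-2.19, adjusted p = 0.000582), Il18rap (-1.48, adjusted p = 0.000253) and Cxcr3 (-1.25, adjusted p = 0.000412). Among all genes tested in both, 1.09% were called with the smaller value in Treg. Cxcr6 stood at 3.03 to 4.18 CPM in lymph node Treg and 3.10 to 4.08 CPM in spleen Treg.

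**Figure D4:**
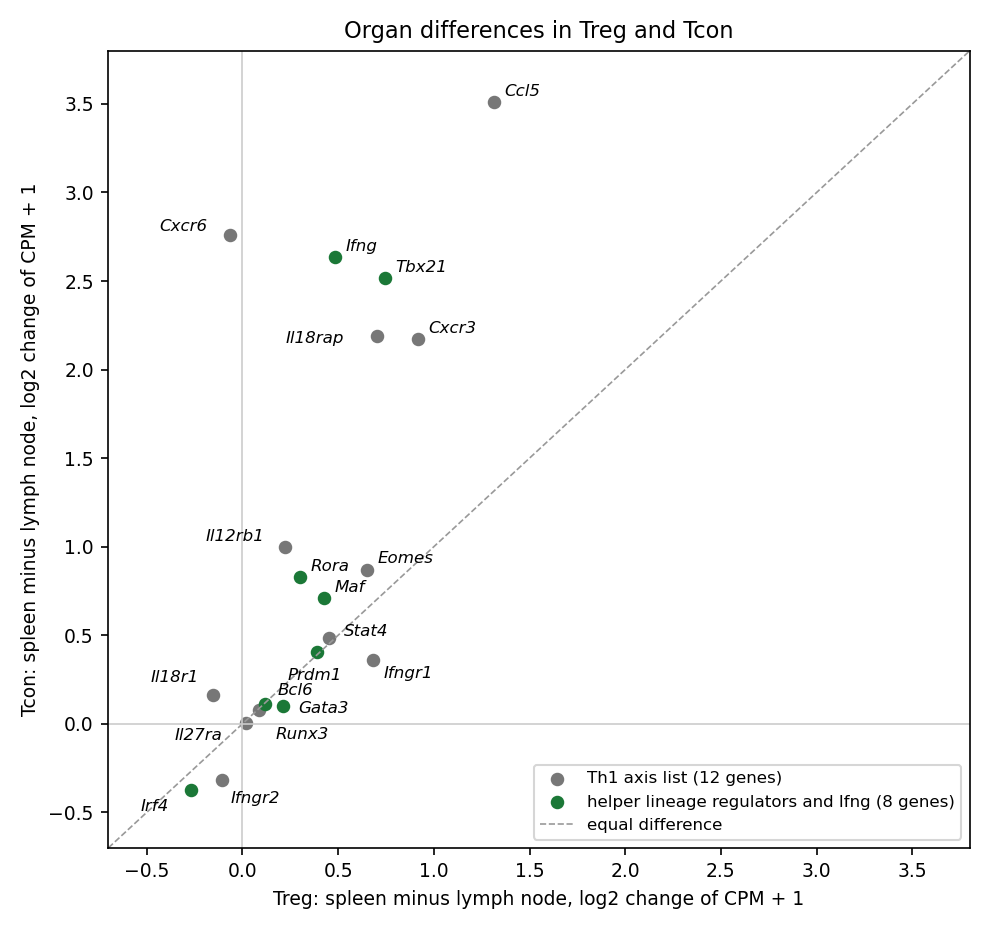
Organ difference (spleen minus lymph node, log2 change of CPM + 1) in Treg on the horizontal axis against Tcon on the vertical axis, for the 8 genes (green) and 12 of the 13 Th1 axis genes tested in both tables (grey), with a dashed line where the differences are equal. Ifng, Tbx21, Ccl5, Cxcr6, Cxcr3 and Il18rap lie well above the line, with Tcon differences from 2.17 to 3.51.

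Of the 13 tested genes that respond to interferon-gamma, 0 were called in Tcon (4.73% of all genes) and 2 in Treg (14.7% of all genes). In Tcon the median was -0.12 and 10 of 13 values were below 0, and Irf1, among the highest of them in level, had a value of 0.061 (adjusted p = 0.599). In Treg 1 was higher, the chemokine Cxcl10 (1.52-fold, log2 change 0.60, which was 0.39 without library 5, with the call lost without library 2 at an adjusted p of 0.0584), and 1 was lower, with a median of -0.076.

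Of the Th2 axis, 4 of 8 tested genes in Treg were higher in spleen and 0 lower: Il1rl1, the receptor of interleukin-33 (1.48-fold), Nfil3 (1.45-fold), Gfi1 (1.43-fold) and Ccr4 (1.26-fold, lost without library 1 at an adjusted p of 0.0507 and library 4 at 0.0525). In Tcon 0 of 7 were higher and 1 was lower, the chemokine receptor Ccr8 (2.49-fold lower, log2 change -1.32, which was -0.76 with a pseudocount of 5, adjusted p = 0.000377), with 6.21 to 8.73 CPM in lymph node and 2.13 to 3.02 CPM in spleen, while Il4ra had -0.074 (adjusted p = 0.654). Among all genes, 8.71% were called higher in spleen and 6.01% lower in Treg, and 3.28% and 1.46% in Tcon. The Th2 cytokine genes Il4, Il5 and Il13 were not listed in either table. Between cell types limma called Ccr8 (1.00, adjusted p = 0.0233, lost without library 2 at 0.0673, 3 at 0.174 or 5 at 0.170, and with a pseudocount of 5 at a value of 0.46 and 0.206) and no other gene of the list.

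Th17 axis genes went both ways in Treg, with 4 of 11 higher in spleen, among them Hif1a (1.24-fold), Batf (1.19-fold) and Runx1 (1.15-fold), and 4 lower, Ccr6 (2.13-fold lower), Tgfbr1 (1.53-fold), Il6ra (1.29-fold) and Il6st (1.21-fold). Each of the 4 that were higher lost its call without library 1 (adjusted p = 0.139 for Hif1a, 0.158 for Batf and 0.0545 for Runx1) and without 2 or 3 other libraries, or 4 for Batf. The log2 change of Hif1a was 0.31, and 0.19 without library 5. In Tcon 1 of 9 passed, Il6st, lower in spleen (1.33-fold, adjusted p = 0.000837), and Ccr6 was not listed. Tgfbr2, the most abundant of the others, had -0.18 (adjusted p = 0.0729, called without library 2 at 0.0480 and with rescaled libraries at 0.0433). Il17a, Il17f and Il22 were listed in neither table. The shares over all genes were 8.71% higher in spleen and 6.01% lower in Treg, and 3.28% and 1.46% in Tcon.

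Of the Tfh axis, the Tfh receptor gene Cxcr5 was higher in spleen in Tcon (1.74-fold) and Treg (1.30-fold), as was Pou2af1 (1.33-fold and 1.63-fold). Which cells carried these transcripts was not tested. In Tcon 3 of 13 were higher, with Slamf6 (1.48-fold), and 1 lower, Tox (1.22-fold lower). Leaving out library 3 ended the Tcon calls of Cxcr5 (adjusted p = 0.0537), Pou2af1 (0.122) and Tox (0.103), and those of Pou2af1 and Tox also ended without 4 of the other libraries. In Treg 3 of 13 were higher, with Tox2 (1.61-fold), and 2 lower, Id3 (1.40-fold lower) and Cd200 (1.29-fold lower). The Treg change of Pou2af1 was 0.71, and 0.46 with a pseudocount of 5. Bcl6, the regulator of this lineage, was not called in either cell type. The shares over all genes were 3.28% higher in spleen and 1.46% lower in Tcon, and 8.71% and 6.01% in Treg.

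In the effector Treg list, 6 of 17 genes were higher in spleen Treg and 1 lower. The surface receptor Klrg1 had the largest change (4.21-fold higher, adjusted p = 1.70e-06), with 4.13 to 5.80 CPM in lymph node and 17.4 to 34.1 CPM in spleen, and the cytokine gene Il10 was 1.60-fold higher (adjusted p = 0.000788). Tigit (1.43-fold), Cxcr3, Il1rl1 and Batf made up the rest, and Itgae, which encodes the CD103 integrin chain, was 2.88-fold lower (adjusted p = 8.72e-10). In Tcon 4 of 11 were higher, Cxcr3, Fgl2 (2.90-fold), Entpd1 (2.77-fold) and Nt5e (1.38-fold), and Ccr8 was lower. The log2 changes of Fgl2 and Entpd1 were 1.54 and 1.47, and with a pseudocount of 5 they were 0.55 and 0.57. With 0.25, Fgl2 had 2.50. Among all genes, 8.71% were called higher in spleen and 6.01% lower in Treg, and 3.28% and 1.46% in Tcon. Nt5e lost its Tcon call without library 3 (adjusted p = 0.152) and without libraries 1, 4 or 5.

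In the SAH comparison these 6 lists held 1 called gene, Itgae in Treg, which was 1.46-fold higher with SAH (log2 change 0.55, SE 0.063, adjusted p = 0.000918). It read 141 CPM with vehicle and 213 and 228 CPM with SAH in lymph node, and 52.5 CPM with vehicle and 68.1 and 77.3 CPM with SAH in spleen, so all 4 SAH libraries were above vehicle. Without library 1 its adjusted p was 0.114. None of the list genes was called in the Tcon SAH comparison, and medians of the lists lay between -0.10 and 0.088 in the 2 cell types. Among all genes, 0.202% were called in Treg and 1.04% in Tcon.

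Abundant genes of each list were not called under SAH. In Treg the changes were 0.022 for Irf1, a transcription factor of the interferon response, -0.0073 for Il27ra, -0.039 for Il4ra, -0.030 for Stat6, -0.036 for Hif1a, -0.072 for Il6st, -0.074 for Tcf7, 0.12 for Icos and 0.11 for Ctla4, with adjusted p-values of 0.848 or more. In Tcon they were 0.17 for Irf1 (95% interval 0.054 to 0.29, adjusted p = 0.168), -0.078 for Il27ra, 0.23 for Il4ra, the interleukin-4 receptor gene (95% interval 0.070 to 0.40, adjusted p = 0.180), 0.027 for Stat6, -0.028 for Tgfbr2, -0.032 for Il6st, -0.067 for Tcf7, 0.035 for Lef1, -0.023 for Icos and -0.076 for Ctla4. Between cell types the SAH effect of Il4ra was -0.27 in Treg relative to Tcon (adjusted p = 0.918) and was called with the library block (adjusted p = 0.0452). Between organs the largest of these values were those of Icos in Tcon (-0.52, adjusted p = 0.624) and Irf1 in Treg (-0.37, adjusted p = 1.00).

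The genes whose pattern over the 12 libraries was most like that of each of the 8 were ranked by Pearson's r of log2(CPM + 1), after the mean of each table was removed, among genes with a mean of at least 10 CPM. The 12 values share organs, libraries and depth, so r is given as a description with no test. For Ifng they were Fam129a (r = 0.984), Bhlhe40 (0.973), a transcription factor of cytokine-producing T cells, and Chsy1 (0.972), and for Tbx21 they were Myo1f (0.976), Prr13 (0.975) and Ifng itself (0.974). Bhlhe40 averaged 36.9 CPM in lymph node Tcon and 103 CPM in spleen Tcon, and Myo1f 2.28 and 19.8 CPM. Those nearest Irf4 were Dnajc10 (0.967), Ifit1 (0.944) and Irf9 (0.935), of which Ifit1 and Irf9 belong to the type I interferon response, and Ifit1 averaged 24.2 CPM in lymph node Tcon and 12.8 CPM in spleen Tcon. Nearest Maf were Rrbp1 (0.957), Atf6 (0.948) and Eea1 (0.940), and nearest Gata3 were Rfx1 (0.952), Kat6b (0.934) and Atp10d (0.927). Rora was followed by Ms4a6c (0.943), Arhgap18 and Chp1 (both 0.936), and Prdm1 by Hint1 (0.945), Socs5 (0.935) and Rilpl2 (0.929). Bcl6 had the least similar neighbours, Gadd45b (0.895), Helb (0.885) and Dennd6a (0.841).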

How the data were processed

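RNA was measured in 6 Treg and 6 Tcon libraries, from lymph node and spleen, with TruSeq stranded mRNA libraries per the labels' protocols. Per the submitters' processing notes the authors used TopHat, Bowtie, edgeR and the build mm10, while the program that counted reads is not given in the sources used here. Each cell type has 1 table, deposited by the authors, whose signal columns are CPM per the file headers, with totals of 971928 to 1021433. Fold changes and mean CPM of the authors are on a log2 scale, per the file headers. The authors also gave scores, which are a likelihood ratio and an up or down call, and p-values with a false discovery rate, per the file headers. In all, 100% of values lay within 0.1 of a whole number of reads, and 0 columns of per-sample values were left unmapped.

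With R 4.3.3 and limma 3.58.1, log2(CPM + 1) was fitted by cell type with organ and treatment as terms, with empirical Bayes and an intensity trend (two-sided). Genes entered at 1 CPM or more in 2 or more libraries. Organ by treatment was tested within a cell type, and differences between cell types in 1 model of 12 libraries over 9784 shared genes. P-values of limma were adjusted after Benjamini and Hochberg over every gene of a comparison, and called means an adjusted p below 0.05. The method was tested on simulated data with independent libraries, so that check does not cover libraries whose deviations are correlated. Each treatment effect rests on 1 vehicle library per organ.

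Library numbers are shared by a Treg and a Tcon library. Deviations of same-numbered libraries from the fit correlated at r = 0.340 to 0.554 across 7824 genes. The values of the 6 numbers are not independent. With 1 vehicle library per organ, the deviations of libraries 1 and 4 mirror each other and have the same r, 0.340. Because of these correlations the block fit is given where it changes a call. The 8 genes, the gene lists and the tests were chosen with earlier results of these data known. Named are all 8 genes, every called list gene (filled up to 2 with the most abundant) and the 3 genes most like each of the 8. The largest uncalled SAH value of the 6 lists is also given for each cell type. A few list genes that this rule would name are not reported here. Alternatives were other pseudocounts, filters and scaling, 1 symbol per set of identical values, the block, and leaving out each library. Coordinates come from GENCODE M21 and promoters from RefSeq, which gave windows for 7 of the 8 genes, Maf excepted.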

Additional observations from a re-analysis of the deposited data

Results flagged for a closer look

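Of 9784 genes tested, 143 were called (1.46%), 1.09% with the smaller value in Treg and 0.368% with the larger. Of these 143, 14 belong to the 8 genes or to the 6 pathway lists, which were chosen with earlier results of these data known. For these 14 the organ difference (spleen minus lymph node) itself differed between Treg and Tcon in the model of all 12 libraries. This was limma's test of that difference with Benjamini-Hochberg adjustment. Values below are the Treg difference minus the Tcon difference on the log2 scale. Ifng had -2.15 (adjusted p = 3.17e-06, organ difference 0.48 in Treg and 2.64 in Tcon) and Tbx21 had -1.77 (adjusted p = 0.000354, 0.75 and 2.51). Th1 axis genes with the same sign were Cxcr6 at -2.82 (-0.064 in Treg and 2.76 in Tcon), Ccl5 at -2.19 (1.31 and 3.51), Il18rap at -1.48 (0.71 and 2.19) and Cxcr3 at -1.25 (0.92 and 2.17). These 6 were called in every alternative run for them, 12 for Cxcr6 and 13 for each of the others, but a pseudocount of 5 in place of 1 reduced Tbx21 to -1.03, Ccl5 to -1.36, Il18rap to -0.66 and Cxcr3 to -0.58.

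Ectoenzyme and effector genes Entpd1 (-1.61), Fgl2 (-1.27) and Nt5e (-0.63) were higher in spleen in Tcon, with Treg organ differences of -0.14, 0.27 and -0.16 that were not called. Slamf6 (-0.59) was likewise called in Tcon (0.56) and not in Treg (-0.025). For Tgfbr1 (-0.55), Cd200 (-0.44) and Il6ra (-0.36) the organ difference was called in Treg (-0.62, -0.37 and -0.37) and not in Tcon (-0.071, 0.075 and -0.012). Ccr8 (1.00) was lower in spleen in Tcon (-1.32) and was not called in Treg (-0.32, adjusted p = 0.0623). Entpd1 was called in all 12 of its alternatives and Tgfbr1 in all 13, Fgl2 in 11 of 12, Slamf6 and Nt5e in 10 of 13, Ccr8 and Cd200 in 9 of 13, and Il6ra in 7 of 13. With a pseudocount of 5, Fgl2 had -0.32 (adjusted p = 0.329) and Ccr8 0.46 (adjusted p = 0.206), neither called, and Entpd1 had -0.70. With 0.25, Fgl2 had -2.23. Calls were lost without library 3 for Ccr8, Cd200, Il6ra, Nt5e and Slamf6 (adjusted p = 0.174, 0.174, 0.235, 0.181 and 0.128), and the cause of these differences was not tested.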

How the results depend on the processing

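Of the gene values recomputed under the alternatives, 2098 kept their side of the threshold, 78 lost the call and 7 gained it, and 0 called differences changed sign. A value called in neither fit was counted as kept. Of all 752 refits of the 8 genes, called or not, 39 changed sign, none of these called, 34 of them on leaving out a library, with none in the organ differences within a cell type and none larger than 0.25. No SAH effect of the 8 genes was called in any alternative. Leaving out each library in turn moved the number of the 8 called between organs from 4 to 7 in Treg (7 with all) and from 3 to 5 in Tcon (5 with all). The same step moved the number of all genes called from 7 to 95 for SAH in Treg (21 with all libraries), 11 to 226 for SAH in Tcon (103), 768 to 1830 for organ in Treg (1531), 215 to 628 for organ in Tcon (468), 0 to 94 for SAH by organ in Treg (1), 0 to 15 for SAH by organ in Tcon (0) and 62 to 133 for organ by cell type (143). SAH by organ could not be fitted without library 1 or 4. Without either, the organ difference rests on SAH libraries alone and has the same value, so these are not separate checks. With the library block, pairing Treg and Tcon libraries, 76 genes were called for SAH by cell type (0 without) and 703 for organ by cell type (143 without), with 4 of the 8 genes rather than 2; it changed no other call of the 8. The filter of 5 CPM in 3 libraries left 92 genes for organ by cell type and 2 for SAH by organ in Treg, as did a pseudocount of 0.25 and 1 symbol per set of identical values. A pseudocount of 5 gave 3 for SAH by cell type and 1 for SAH by organ in Tcon. The causes were not tested. Rescaling each library moved the 32 mean levels of the 8 genes by at most 1.07%. The planned edgeR test on rebuilt reads was not run, since the rebuilt reads could not be checked against the scaled columns. Of the 8 genes, the fewest reads were those of Tbx21 in lymph node Tcon, which rests on 43 to 73 reads.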
